A study of Mus musculus with 44 samples.

Results

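Distal open chromatin sites that also carried acetylated histone H3 lysine 27 (H3K27ac) in the mouse paraventricular thalamic nucleus (PVT) were examined. A site was an autosomal ATAC peak that lay more than 2 kb from both ends of every protein-coding gene and overlapped a PVT H3K27ac peak by 1 bp or more. Of 89792 ATAC peaks, 87593 were autosomal, and 26905 of these (30.7%) were such distal acetylated sites. The other autosomal peaks were 43903 distal sites without PVT H3K27ac and 16785 peaks within 2 kb of a gene end.

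The series compared wild-type (WT) mice with Polg(D181A) mice, called Polg below, a mouse model of bipolar disorder that expresses a proofreading-deficient mitochondrial DNA polymerase in neurons from a transgene driven by the Camk2a promoter. Each chromatin table held 2 WT and 2 Polg libraries of adult mice, made from nuclei sorted for NeuN, a neuronal nuclear protein. ATAC was read in PVT only. H3K27ac was read there and in 3 other regions: the nucleus accumbens (NAC), the caudate putamen (CP) and cortex (COR). All H3K27ac libraries carried the strain label C57BL/6, but those of the 4 ATAC libraries run in sequence, C57BL/7 and C57BL/8 for WT and C57BL/9 and C57BL/10 for Polg. Whether these name different strains is not given in the sources used here, and the labels may be in error, so strain label and library cannot be told apart. The labels do not say that replicates came from separate animals, and p-values then measure the spread between these libraries, which may be technical.

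ATAC-seq marks DNA that a transposase can reach, which includes promoters, enhancers and insulators. H3K27ac is laid down by the acetyltransferases CBP and p300 and marks active promoters and enhancers, so an open distal site inside an acetylated domain is commonly treated as a candidate enhancer. The PVT is a midline thalamic nucleus of glutamatergic neurons that projects to the accumbens and amygdala and is known for roles in arousal, stress and reward.

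Some distal sites covered transcription starts, because the rule measured distance to the outer ends of protein-coding genes only, and neither starts inside such a gene nor those of non-coding genes counted. Of 31396 autosomal RefSeq start windows (300 bases, 250 before to 50 after a start, GRCm38.p6, which is mm10), 975 overlapped a site by 150 bp or more, 572 of them of protein-coding genes and 402 of long non-coding RNAs. These windows lay over 854 sites (3.17%). The 4 protein-coding windows that lay wholly inside the sites of highest ATAC level, and that of the clock gene Arntl, are shown to make visible what such a site looks like in sequence. Each runs 5′ to 3′ on the gene's strand, and capitals mark matches, on either strand, to the CCAAT box (CCAAT, or ATTGG when read on the other strand), the E-box CACGTG or the NRF1 motif.
Hdac4, minus strand, chr1:92180292-92180591: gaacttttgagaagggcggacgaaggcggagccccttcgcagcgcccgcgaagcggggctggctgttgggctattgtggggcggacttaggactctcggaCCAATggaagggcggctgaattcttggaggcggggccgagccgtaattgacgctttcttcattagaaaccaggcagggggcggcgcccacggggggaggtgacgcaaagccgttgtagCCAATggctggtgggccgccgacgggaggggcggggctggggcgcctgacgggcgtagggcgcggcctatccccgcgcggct
Ptprs, minus strand, chr17:56462172-56462471: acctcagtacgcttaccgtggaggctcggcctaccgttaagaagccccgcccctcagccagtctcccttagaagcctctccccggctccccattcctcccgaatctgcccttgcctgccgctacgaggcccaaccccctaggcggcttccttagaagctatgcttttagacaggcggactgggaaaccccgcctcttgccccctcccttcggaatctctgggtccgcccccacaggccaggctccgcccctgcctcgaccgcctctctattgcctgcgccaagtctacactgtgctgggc
Hnrnph1, plus strand, chr11:50377428-50377727: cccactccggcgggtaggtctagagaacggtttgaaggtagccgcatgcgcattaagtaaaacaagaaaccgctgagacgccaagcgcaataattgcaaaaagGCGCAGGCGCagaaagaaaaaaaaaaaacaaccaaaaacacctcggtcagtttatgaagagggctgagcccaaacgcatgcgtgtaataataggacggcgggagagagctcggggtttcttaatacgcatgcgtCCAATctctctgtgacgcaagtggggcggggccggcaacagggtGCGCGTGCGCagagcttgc
Rnf44, minus strand, chr13:54687759-54688058: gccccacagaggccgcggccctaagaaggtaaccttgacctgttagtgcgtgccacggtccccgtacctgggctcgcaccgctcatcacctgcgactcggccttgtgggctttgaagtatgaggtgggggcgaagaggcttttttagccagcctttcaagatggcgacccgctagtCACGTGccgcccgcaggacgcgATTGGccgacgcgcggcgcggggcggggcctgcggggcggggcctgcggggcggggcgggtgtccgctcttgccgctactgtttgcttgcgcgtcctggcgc
Arntl, plus strand, chr7:113207215-113207514: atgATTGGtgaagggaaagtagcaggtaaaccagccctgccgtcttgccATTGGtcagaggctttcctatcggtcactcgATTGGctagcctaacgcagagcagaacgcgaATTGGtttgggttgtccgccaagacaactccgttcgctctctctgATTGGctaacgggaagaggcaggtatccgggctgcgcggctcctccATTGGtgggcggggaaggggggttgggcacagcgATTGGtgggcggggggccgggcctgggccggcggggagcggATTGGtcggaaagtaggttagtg

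The Hdac4 window held 32 CG dinucleotides, and the Rnf44 window held 34, against a median of 15 in windows over sites and 7 in all windows. The Arntl window, over the start region of the gene for BMAL1, held 8 CCAAT matches, the most of the 5, and 258 of its bases lay in the site. The Hnrnph1 window held both NRF1 matches. Ptprs, which encodes a receptor tyrosine phosphatase of synapses, had no match to the 7 motifs searched. Over all windows that overlapped sites, CCAAT occurred in 36.6% (37.3% of all windows), CACGTG in 8.41% (7.14%) and the NRF1 motif in 6.97% (4.68%). The cAMP response element TGACGTCA occurred in 2.87% (1.83%), the AP-1 motif TGANTCA in 6.67% (7.84%), the TCF/LEF motif CTTTGAT in 3.90% (3.76%) and the MEF2 motif in 3.49% (3.73%). A match describes letters in a window and not a bound factor.

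Sites over start windows had higher ATAC medians in each library. Their median ATAC level, in CPM (counts scaled by TMM to a common library size), was 14.5 and 15.2 in the WT libraries and 14.1 and 14.3 in the Polg libraries, against 7.46, 7.03, 6.68 and 7.17 in the other sites. At the Hdac4 start the level was 87.8 and 85.1 CPM in WT and 88.9 and 61.2 CPM in Polg. The Arntl site had 69.6 and 39.6 CPM in WT and 48.0 and 39.5 CPM in Polg. Genotypes overlapped at the Hdac4 site, and at the Arntl site the first WT library stood above the other 3.

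Of 919 autosomal miRNA hairpins in RefSeq, 16 overlapped a site, each a different one. They included 6 hairpins of the miR-344 cluster on chromosome 7, whose nearest protein-coding genes were Ndn and Gm51483, and the neuronal miRNAs miR-132 and miR-128-2. The mature sequences are shown to group them by seed (bases 2 to 8, in capitals).
mmu-miR-132-3p: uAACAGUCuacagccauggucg
mmu-miR-132-5p: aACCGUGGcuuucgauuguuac
mmu-miR-128-3p: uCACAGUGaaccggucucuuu
mmu-miR-344-5p: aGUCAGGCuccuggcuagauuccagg
mmu-miR-344b-5p: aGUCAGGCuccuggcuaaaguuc
mmu-miR-344d-1-5p: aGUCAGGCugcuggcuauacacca
mmu-miR-344g-5p: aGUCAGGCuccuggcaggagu
mmu-miR-344-3p: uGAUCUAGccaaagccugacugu
mmu-miR-344d-3p: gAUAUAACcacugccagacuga

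The miR-344 5p arms shown share the seed GUCAGGC, whereas the 3p arms do not share one. The site over Mir132, a miRNA induced by CREB, lay at chr11:75173483-75173811, outside protein-coding genes, 2.13 kb from the nearest gene end. Its ATAC level was 35.7 and 26.6 CPM in WT and 18.0 and 24.6 CPM in Polg, and it overlapped H3K27ac peaks in COR and NAC. Both Polg values lay below both WT values there, and the change did not pass the test (log2 −0.55, adjusted p = 0.798, edgeR). Mir128-2 lies inside Arpp21, a gene of striatal and cortical neurons, and its site at chr9:112118321-112118770 had 18.8 and 17.8 CPM in WT and 15.4 and 19.2 CPM in Polg. Among the 6 sites of the miR-344 cluster, the mean level ran from 5.51 CPM at Mir344d-3 to 13.9 CPM at Mir344. The Mir344 site had 22.8 and 12.9 CPM in WT and 7.45 and 12.5 CPM in Polg, and it overlapped peaks in COR, CP and NAC.

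Depth was moderate for ATAC and high for H3K27ac. Counts in peaks were 2932270 to 8040451 per ATAC library and 52759552 to 146450422 per PVT H3K27ac library. A site had a median of 61 and 20 counts in the WT and 26 and 66 in the Polg ATAC libraries. At least 1 count was present in all 4 ATAC libraries at 26282 sites (97.7%), and 25352 sites (94.2%) had an H3K27ac peak with counts in all 4 libraries. The 71 ATAC peaks above 100 CPM, 5 of them among the sites, held 15.6 and 30.6% of the counts of the WT libraries and 30.8 and 16.9% of those of the Polg libraries. Gene ends of the pan-neuronal markers were open at 9 of 9 genes and those of the thalamic glutamatergic markers at 7 of 7. No ATAC peak lay at the ends of the GABAergic markers Gad1, Gad2 and Slc32a1, and oligodendrocyte markers had one at 2 of 7 genes. Levels at gene ends were summed per library and divided by all genes of a set, with or without a peak. Ranges run over the 4 libraries. The level per gene was 3.17 to 5.38 CPM for oligodendrocyte markers against 30.2 to 34.2 CPM for the pan-neuronal markers. Striatal markers had one at 6 of 7 genes, with 12.9 to 16.8 CPM per gene, beside 12.1 to 16.6 CPM for the thalamic markers. Cortical markers had one at 5 of 7 genes (4.57 to 6.13 CPM per gene), endothelial markers at 3 of 4 (2.36 to 4.08 CPM), astrocyte markers at 2 of 5 (1.74 to 6.66 CPM), microglial markers at 2 of 5 (0.148 to 1.54 CPM) and oligodendrocyte precursor markers at 0 of 2. The part of other cell types in the results was not tested.

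By median ATAC level, distal acetylated sites lay above distal sites without acetylation and below sites at gene ends. Their median was 7.58 and 7.40 CPM in WT and 6.68 and 7.28 CPM in Polg. Distal sites without PVT H3K27ac had 3.98 and 4.07 CPM in WT and 4.37 and 4.19 CPM in Polg. Peaks within 2 kb of a gene end had 13.2 and 13.7 CPM in WT and 12.8 and 13.0 CPM in Polg. The same order of medians was seen in each of the 4 libraries. Acetylated sites stood 1.74-fold above the other distal sites (log2 0.80 ± 0.14, SD, n = 4, exact sign-flip permutation test, 2-sided, p = 0.13, the smallest p that 4 libraries allow). They stood at 0.548 of the gene-end level (log2 −0.87 ± 0.06, SD, n = 4, exact p = 0.13).

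**Figure D1:**
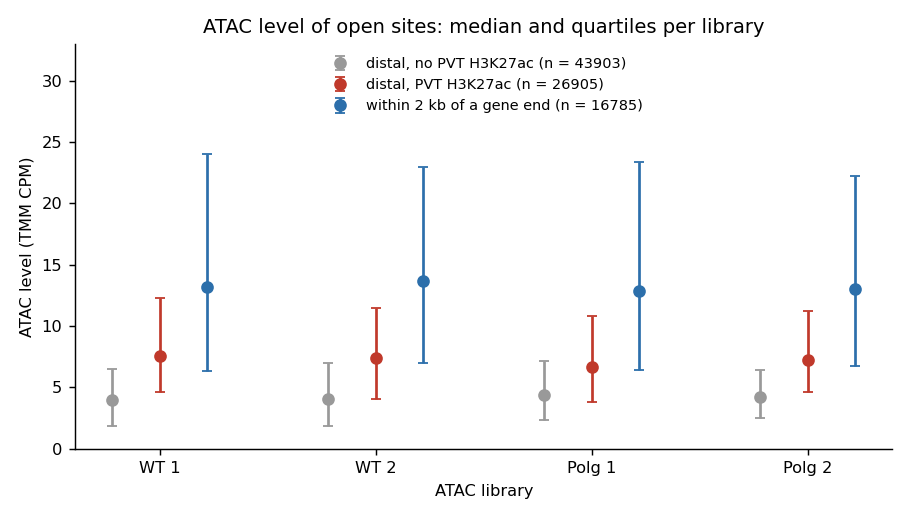
ATAC level in TMM-scaled CPM (y axis) by library (x axis) for the 3 classes of autosomal ATAC peaks, with points at the median and bars from the lower to the upper quartile. Distal sites with PVT H3K27ac have medians of 6.68 to 7.58 CPM, between distal sites without it and peaks at gene ends, in all 4 libraries.

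The acetylated domains over these sites were long. The 26905 sites lay under 22979 distinct H3K27ac peaks, 18.9% of the 121505 autosomal ones, and 96.1% of those peaks were themselves more than 2 kb from gene ends. Their median length was 1530 bp, against 298 bp for the 83034 other distal PVT H3K27ac peaks. A longer peak meets an ATAC peak more easily, so the rule itself favours long domains. A single site lay under 19520 of them, and 3459 held more, with at most 8 sites under 1 peak. Sites wholly inside an H3K27ac peak numbered 18183 (67.6%). Per kb, the H3K27ac level over sites was a median of 7.71 and 7.23 CPM in WT and 7.23 and 7.66 CPM in Polg. Other distal H3K27ac peaks had 6.31 and 5.76 CPM per kb in WT and 5.71 and 7.00 in Polg. Each library had the higher median over sites (1.21-fold, log2 0.27 ± 0.10, SD, n = 4, exact sign-flip permutation p = 0.13, the smallest possible). In CPM without division by length, where longer peaks hold more reads, the ratio was 4.45-fold. Across the 26905 sites, ATAC level and H3K27ac level per kb were weakly related (Spearman 0.14). Sites of 1 library set share its depth and base composition, so this is a description.

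The rule's thresholds cut through a continuum. The 461 sites in the first 500 bp beyond the 2 kb limit had a median of 9.55 CPM, and the 622 acetylated ATAC peaks in the last 500 bp before it had 9.79 CPM. The 1124 sites that overlapped the H3K27ac peak by 1 to 50 bp had 5.14 CPM, and the 938 distal ATAC peaks that missed one by 1 to 50 bp had 5.27 CPM. The level fell with distance in these bins, from 9.5 CPM in the 2255 sites at 2 to 5 kb to 6.01 CPM in the 6709 sites over 100 kb from a gene end, while the H3K27ac level went from 7.08 to 8.61 CPM per kb over the same bins.

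Sites lay inside protein-coding genes in 15152 cases (56.3%), against 53.2% of distal sites without acetylation. The median distance to the nearest gene end was 38.0 kb, with quartiles of 14.5 and 99.8 kb and a maximum of 2.24 Mb. Distal sites without acetylation had a median of 45.6 kb. Exons and introns were not told apart, because the gene table used here holds gene spans only. Assigned to the host or else the nearest gene, the sites fell to 7509 of 20661 autosomal protein-coding genes (36.3%), with a median of 2 sites per such gene, 2901 genes with 1 site and 575 with 10 or more.

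The 10 genes with the most sites had 32 to 64 each. Pik3c3, a lipid kinase of autophagy with a span of 82.5 kb, had 64 sites, of which 3 were inside it and the others were nearest to it. Auts2, a neurodevelopmental gene, had 41, of which 31 were inside its 1106 kb and 29 overlapped no H3K27ac peak in COR, CP or NAC. Ntm and Lsamp, which encode related cell adhesion molecules, had 40 and 33 sites. Tenm4, a teneurin of synaptic adhesion, had 40. Camta1, a calcium-responsive transcription factor, and Rora, a nuclear receptor of thalamic and cerebellar neurons, had 34 each, all inside the gene. Csmd1, Fhit and Ctnna2 had 33, 33 and 32. Across genes, which are not independent replicates, the number of sites inside a gene followed its span (Spearman 0.59, n = 20661). The shortest of these genes cannot hold a site more than 2 kb from both ends, so the relation is partly fixed by the rule.

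The highest ATAC levels were found at sites near Sfi1 (208 and 169 CPM in WT, 217 and 206 CPM in Polg) and Scaf8 (169 and 112 CPM in WT, 139 and 155 CPM in Polg). Both lie outside genes, at chr11:3123765-3124264 and chr17:3084103-3084597, within the first few megabases of their chromosomes. How uniquely reads map at the sites named here was not checked. Inside Sin3a, a corepressor scaffold, the site at chr9:57076039-57076410 had 137 and 97.3 CPM in WT and 168 and 111 CPM in Polg. Sp2, a zinc finger factor, held a site at chr11:96977640-96978093 with 146 and 104 CPM in WT and 134 and 116 CPM in Polg. The next were a site near 9530057J20Rik (mean 101 CPM) and one inside Phf19, a Polycomb accessory gene (mean 90.2 CPM). Each of these 6 had overlapping genotypes, and the mean over 4 libraries of the median site was 7.23 CPM.

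By H3K27ac level per kb, the highest sites lay near Snx6 and 9530057J20Rik, inside Gm8126, near Pecr, inside Ptprr and near Gm15319. The 9530057J20Rik site, at chr8:20122075-20122403, met only the edge of its H3K27ac peak at chr8:20122401-20122843. The Snx6 site at chr12:54734533-54734855 had 112 and 80.7 CPM per kb in WT and 120 and 76.6 in Polg, over an H3K27ac peak of only 151 bp. The Ptprr peak also had 151 bp, and the level per kb of such short peaks rests on few bases. Gm8126 had 88.3 and 52.6 CPM per kb in WT and 59.6 and 63.2 in Polg over 4537 bp.

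Acetylation in the other brain regions covered part of the sites. H3K27ac peaks overlapped 9858 sites in COR (36.6%), 9174 in NAC (34.1%) and 5874 in CP (21.8%). Peaks of all 3 regions lay over 2608 sites (9.69%), and 12009 sites (44.6%) overlapped a peak in none of them. Distal sites without PVT H3K27ac overlapped COR in 16.8%, NAC in 15.4% and CP in 10.1% of cases, and 69.4% overlapped none. ATAC peaks at gene ends overlapped COR in 53.5%, NAC in 54.5% and CP in 33.1%, and 26.6% overlapped none. A missing peak is not missing acetylation: autosomal peaks covered 140 Mb in COR, 117 Mb in NAC and 68.9 Mb in CP, against 134 Mb in PVT, and up to 80.6% of CP peaks and 69.3% of NAC peaks had 0 counts in 1 library. With peaks required to cover 50% of the ATAC peak, the share with no overlap was 52.7%.

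**Figure D2:**
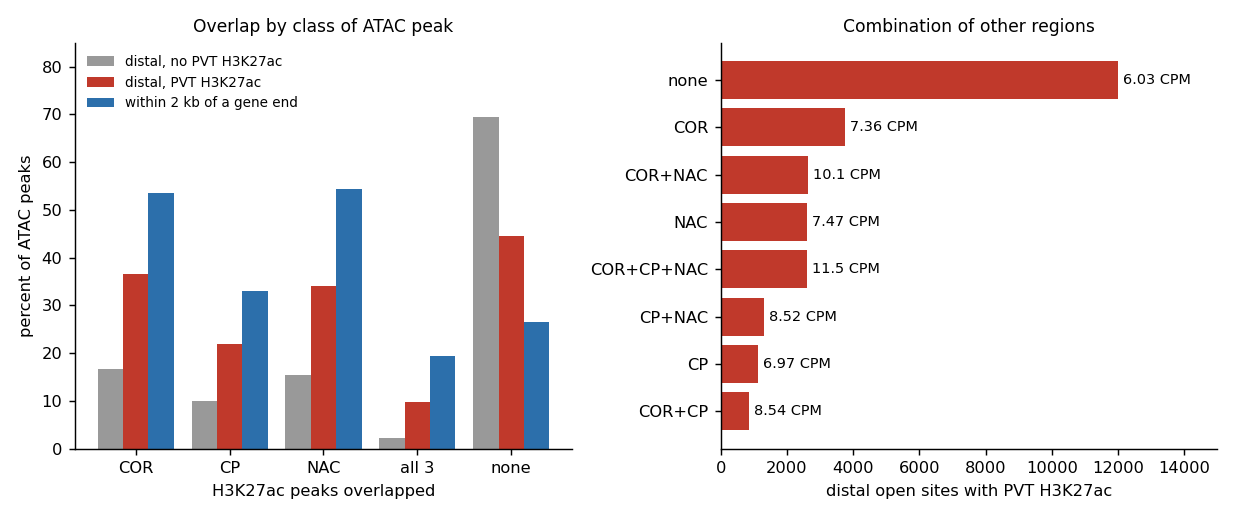
Left, percent of ATAC peaks (y axis) that overlap an H3K27ac peak of COR, CP or NAC, of all 3 or of none, for the 3 classes. Right, number of distal acetylated sites for each combination of other regions, with the median of mean ATAC levels beside each bar: 12009 sites overlap none, at 6.03 CPM, and 2608 overlap all 3, at 11.5 CPM.

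Sites shared with more regions had higher ATAC medians in each library. The median ATAC level of sites with no other region was 6.47 and 5.92 CPM in WT and 5.65 and 6.06 CPM in Polg. With 1 other region it was 7.58 and 7.40 CPM in WT and 6.68 and 7.39 CPM in Polg, and with 2 it was 9.45 and 9.62 CPM in WT and 8.73 and 9.15 CPM in Polg. With all 3 it was 11.8 and 11.8 CPM in WT and 10.5 and 11.2 CPM in Polg. The last stood 1.89-fold above the first (log2 0.91 ± 0.06, SD, n = 4, higher in 4 of 4 libraries, exact sign-flip permutation p = 0.13, the smallest possible). The PVT H3K27ac peak was also longer, with a median of 2945 bp over sites with all 3 against 1429 bp over sites with none, and a longer peak is overlapped more easily. Sites over RefSeq start windows overlapped no other region in 16.7% and all 3 in 27.4% of cases, against 45.5% and 9.11% for the other sites.

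The most open sites without a peak in COR, CP or NAC lay inside Ptprs, whose start sequence is shown above, and Dlgap2, and near Trappc9, Srbd1, Kazn and Snx6. The Ptprs site had 70.7 and 65.1 CPM in WT and 84.3 and 70.0 CPM in Polg. Dlgap2, a postsynaptic scaffold gene, had 42.9 and 68.4 CPM in WT and 134 and 32.9 CPM in Polg, the widest spread of the 6. The Kazn site had 65.2 and 54.4 CPM in WT and 61.4 and 50.6 CPM in Polg. Genotypes overlapped at each of these 3. The most open sites with all 3 regions were those near Sfi1, Scaf8 and 9530057J20Rik and inside Sp2.

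Gene lists were compared by where their sites were acetylated, with 44.6% of all sites without another region as the background. Transcription factors of thalamic neurons (15 of 16 genes with a site, 159 sites) had no peak in COR, CP or NAC at 103 sites (64.8%), and genes of PVT signalling (13 of 19 genes, 45 sites) at 31 (68.9%). Striatal genes (8 of 13, 43 sites) had none at 6 (14.0%) and overlapped NAC at 33 (76.7%). Immediate early genes (13 of 15, 29 sites) had none at 6 (20.7%), with COR at 17 and NAC at 18. Pan-neuronal genes (8 of 9, 71 sites) had none at 20 (28.2%), and cortical transcription factors (6 of 12, 44 sites) had none at 16 (36.4%). Sites of a gene share a locus and often a domain, so they are not independent, and no test was made. Among the sites of thalamic factors, 72.9% of those outside genes and 55.4% of those inside had no other region, and among those of PVT signalling genes 79.3 and 50%. Over all sites these shares were 48.6 and 41.6%.

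**Figure D3:**
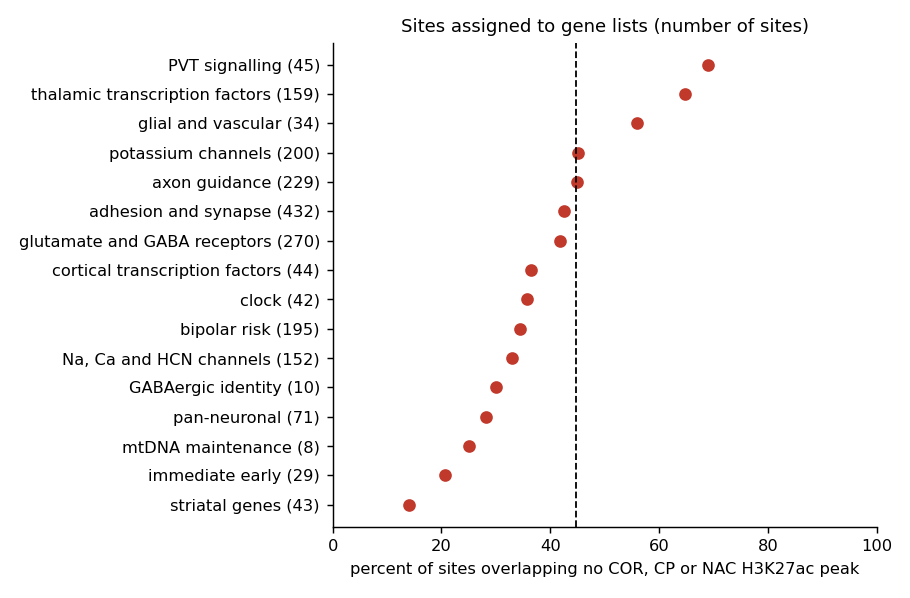
Percent of distal acetylated sites (x axis) assigned to each of 16 gene lists that overlap no H3K27ac peak in COR, CP or NAC, with the number of sites in brackets, and the dashed line at 44.6%, the share over all sites. PVT signalling and thalamic transcription factors lie highest at 68.9 and 64.8%, and striatal genes lowest at 14.0%.

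Among thalamic factors, Tcf7l2, a Wnt effector that sets thalamic identity, had 11 sites, 7 of them without another region. Its most open site, 72.6 kb from the nearest gene end at chr19:56006248-56006791, had 21.0 and 21.1 CPM in WT and 24.1 and 8.27 CPM in Polg, and it overlapped a CP peak. The second Polg library was the lowest there and the first the highest. Lef1, a partner of the same pathway, had 9 sites and 6 without another region. Its most open site, inside the gene at chr3:131196638-131196966, had 17.9 and 11.8 CPM in WT and 4.11 and 8.38 CPM in Polg, so the genotypes did not overlap, and the change did not pass the test (log2 −1.22, SE 0.51, adjusted p = 0.798, edgeR).

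Prox1, a homeobox factor of thalamic neurons, had 16 sites, all outside the gene and 15 without another region, the highest count of such sites after Rora and Zfhx3 in this list. The most open Prox1 site, at chr1:190174839-190175382, overlapped a COR peak. It had 21.0 and 23.3 CPM in WT and 19.3 and 12.2 CPM in Polg under a PVT H3K27ac peak of 8543 bp. Of the 34 sites in Rora, 22 had no other region. The most open of the 34, at chr9:69071451-69071803, overlapped peaks in COR and NAC. It had 22.3 and 11.8 CPM in WT and 23.1 and 9.26 CPM in Polg. Zfhx3, a factor of neuronal differentiation, had 31 sites and 21 without another region. Its most open site lies outside the gene, 223 kb from the nearest gene end. It had 23.7 and 12.6 CPM in WT and 13.9 and 13.6 CPM in Polg under a 12029 bp H3K27ac peak. Genotypes overlapped at the Rora and Zfhx3 sites and not at the Prox1 site, where the change did not pass the test (log2 −0.50, adjusted p = 0.805, edgeR).

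Other members of the list were Sox2 (10 sites, 6 without another region), Rorb (10 and 5), Nr2f1 (8 and 4), Foxp2 (8 and 3), Zic1 (6 and 5), Lhx2 (6 and 2), Zfhx4 (4 and 2), Nr2f2 (3 and 3), Lhx9 (2 and 1) and Zic4 (1 and 1). Gbx2, which marks the developing thalamus, had no site. The highest ATAC levels among them were at Lhx2 (14.4 and 28.9 CPM in WT, 22.1 and 21.4 CPM in Polg) and Nr2f1 (24.0 and 22.6 CPM in WT, 20.5 and 17.3 CPM in Polg), a nuclear receptor of area patterning. This Lhx2 site lies inside the gene. All sites of Nr2f1, Sox2, Nr2f2, Zic1, Zic4 and Lhx9 lay outside the gene and were assigned to it as the nearest. The most open lay 228 kb from the nearest gene end for Nr2f1, 269 kb for Sox2 and 581 kb for Nr2f2. Genotypes overlapped at Lhx2. At Nr2f1 both Polg values lay below both WT values, and the change did not pass the test (log2 −0.30, adjusted p = 0.851, edgeR).

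Among signalling genes of the PVT, Htr7, a serotonin receptor, had 9 sites and 8 without another region, with 23.5 and 9.99 CPM in WT and 13.4 and 16.9 CPM in Polg at the most open. Slc17a6, the vesicular glutamate transporter of thalamic neurons, had 6 sites and 5 without another region. Its most open site lies inside the gene at chr7:51662515-51662984, and had 18.2 and 16.3 CPM in WT and 11.3 and 15.8 CPM in Polg. Cck, a neuropeptide gene, had 2 sites, the more open with 39.7 and 16.3 CPM in WT and 21.1 and 15.0 CPM in Polg under an H3K27ac peak of 13511 bp, the longest among the sites named for this list. Genotypes overlapped at the Htr7 site and did not at the Slc17a6 site, where the change did not pass the test (log2 −0.33, adjusted p = 0.856, edgeR).

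Receptor genes of the list other than Htr7 had 0 to 5 sites. Drd2, the dopamine receptor used as a marker of posterior PVT neurons, had 3 sites, all inside it, of which 1 had no other region and 2 overlapped CP. Oprm1, the mu-opioid receptor, had 5 sites and 3 without another region. Hcrtr2, an orexin receptor, had 1 site, inside the gene at chr9:76247526-76247858, without another region and with 8.21 and 5.18 CPM in WT and 8.22 and 8.60 CPM in Polg. Crhr1, the receptor for corticotropin-releasing hormone, had 4 sites, Htr1a had 3, and Drd3 had 2, both over NAC peaks. The Htr1a sites all lay outside the gene, the most open of them 562 kb from the nearest gene end. Calb2, which encodes the PVT marker calretinin, had 2 sites, and Gal, the galanin gene, had 2. No site fell to Hcrtr1, Oprk1, Grm2, Npy1r, Npy2r or Glp1r.

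Striatal genes with sites in PVT neurons were led by Foxp1 (17 sites, 14 over NAC peaks and 2 without another region) and Pde10a (10 sites, 9 over NAC peaks). Foxp1 encodes a forkhead factor and Pde10a a phosphodiesterase of medium spiny neurons. The same NAC overlap held for both sites of Isl1 and for the single site of Penk. At immediate early genes, which respond to neuronal activity, Fos had 5 sites, 4 of them over NAC and 3 over COR peaks. Fosb, Fosl2, Npas4 and Arc each had 1 site, and each overlapped all 3 regions. Bdnf had 4 sites, 3 of them over COR peaks and none over CP or NAC peaks.

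Ion channel, receptor and adhesion lists held more sites, at shares of 32.9 to 45.0% without another region. Their genes were long, with median spans of 153 to 880 kb against 17.5 kb over all autosomal protein-coding genes. Of all such genes, 36.3% had a site. Potassium channel genes (27 of 27 with a site, 200 sites) had no other region at 45.0%, adhesion and synapse genes (29 of 30, 432 sites) at 42.6%, glutamate and GABA receptor genes (30 of 34, 270 sites) at 41.9%, and sodium, calcium and HCN channel genes (22 of 24, 152 sites) at 32.9%. Kcnma1, a calcium-activated potassium channel, had 26 sites, 11 without another region. Grid1, a delta glutamate receptor, had 27 sites and 18 without another region, while Grin2b and Grin2a, NMDA receptor subunits, had 25 and 19 sites and 4 each without one. Cacna1c, a calcium channel gene at a bipolar disorder risk locus, had 25 sites and 5 without another region. Axon guidance genes (23 of 26, 229 sites) had no other region at 45.0%, led by Epha4 with 29 sites, 4 of them inside the gene. Bipolar risk genes (18 of 19, 195 sites) had no other region at 34.4%, and Ank3, which organises the axon initial segment, had 23 sites and 4 without one.

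Smaller lists were those of the clock (8 of 14, 42 sites, 35.7% without another region), of GABAergic identity (6 of 13, 10 sites, 30%) and of mitochondrial DNA maintenance (5 of 12, 8 sites, 25%). Glial and vascular genes (12 of 23, 34 sites) had no other region at 55.9%, led by the oligodendrocyte gene Mobp with 7 sites, all outside the gene. The nuclei were sorted for NeuN, and the glial part in these sites was not tested. Npas2, a partner of BMAL1, had 10 sites, the same number as Rorb, and Arntl and Cry1 had 7 each.

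Between genotypes, 1 site was called by ATAC. The edgeR quasi-likelihood test with Benjamini-Hochberg adjustment over 87600 ATAC peaks called 1 peak (0.00114%) at an adjusted p under 0.05, and it was 1 of the 26724 distal acetylated sites tested. The DESeq2 Wald test called 3 of all 89792 peaks (0.00334%), 2 of them among the sites, and limma voom called 6 of 87600 (0.00685%), 1 of them among the sites. At an unadjusted p under 0.05 edgeR gave 1153 such sites (4.31%), against 6.13% of all ATAC peaks tested. Of the 1153 sites, 397 were 323 bp and 532 were 329 bp long with identifiers ending in 1, and 224 had identifiers ending in 2 or 3. The mix of these kinds differed between classes of ATAC peaks. The called site, at chr18:39868433-39868761, lies outside genes, 92.4 kb from the nearest gene end, with Pabpc2 as the nearest gene. Its counts were 636 and 146 in WT and 22 and 82 in Polg, which is 79.1 and 54.0 CPM in WT and 5.65 and 9.04 CPM in Polg. The site was lower in both Polg libraries (log2 −3.14, SE 0.37, n = 2 per genotype, adjusted p = 0.0235, edgeR). It is 329 bp long with an identifier ending in 1, a kind of which only 7.19% of tested sites were higher in Polg. The part of this kind in the call was not tested. Without the first WT library the change was −2.85 and the call was lost (adjusted p = 0.0793, edgeR).

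Acetylation at this site was not called. The PVT H3K27ac peak over it, 5743 bp long, had 56.4 and 48.0 CPM in WT and 42.9 and 38.3 CPM in Polg (log2 −0.36, SE 0.23, adjusted p = 0.880, edgeR). The groups did not overlap, but the change did not pass the test. The site overlapped H3K27ac peaks in all 3 other regions. In CP the peak there had 45.6 and 0 CPM in WT and 2.73 and 7.40 CPM in Polg, and in COR 8.82 and 0 CPM in WT and 3.73 and 0.325 CPM in Polg. The second WT library had no count in COR, CP or NAC, so these values show no common direction.

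Polg itself, which encodes the catalytic subunit of the mitochondrial DNA polymerase, had 3 sites. The one inside the gene, at chr7:79453797-79454119, 3.53 kb from the nearest gene end, had 23 and 2 ATAC counts in WT and 90 and 106 in Polg, or 2.86 and 0.740 CPM in WT and 23.1 and 11.7 CPM in Polg. Both Polg libraries were higher, and the change did not pass the test (log2 3.05, SE 0.63, adjusted p = 0.704, edgeR), while the DESeq2 Wald test gave an adjusted p of 0.0476. The site was of a kind, 323 bp with an identifier ending in 1, of which 82.8% of tested sites were higher in Polg. Its PVT H3K27ac peak went the same way, with 3.76 and 4.56 CPM in WT and 13.3 and 14.6 CPM in Polg (log2 1.74, SE 0.47, adjusted p = 0.556 by edgeR and 3.98e-05 by DESeq2). The COR peak there had 0.0108 and 14.2 CPM in WT and 21.5 and 40.2 CPM in Polg, and the CP peak had 39.9 and 14.2 CPM in WT and 49.1 and 92.2 CPM in Polg. Both Polg libraries were higher than both WT libraries in those regions as well, and only the second Polg library had counts in NAC.

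The gene's open end had overlapping genotypes. The ATAC peak at chr7:79466096-79466520, within 2 kb of a Polg gene end, had 25.4 and 24.8 CPM in WT and 27.2 and 22.8 CPM in Polg (log2 −0.01, adjusted p = 0.998, edgeR). The other 2 sites nearest to Polg, 31.7 and 36.8 kb from a gene end, had log2 changes of 0.86 and −0.38, neither past the test. The transgene of this line holds Polg coding sequence, and reads from it and from the native gene cannot be told apart in these counts.

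The next smallest p-values were at sites inside Ptprn2, Stxbp6 and Adgrb3, each with an adjusted p of 0.704 (edgeR). The Ptprn2 site, at chr12:116827838-116828160 in a gene of dense-core vesicles, had 4.72 and 6.29 CPM in WT and 31.6 and 15.1 CPM in Polg. Its H3K27ac peak went the other way, with 56.4 and 50.9 CPM in WT and 13.0 and 29.2 CPM in Polg. Stxbp6, a SNARE-binding protein, had a site at chr12:44896399-44896867 with 25.9 and 29.2 CPM in WT and 10.5 and 7.72 CPM in Polg. Adgrb3, an adhesion receptor for C1q-like proteins, had one at chr1:25085144-25085472 with 9.95 and 7.40 CPM in WT and 0.514 and 1.10 CPM in Polg. H3K27ac overlapped between genotypes at both of these.

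**Figure D4:**
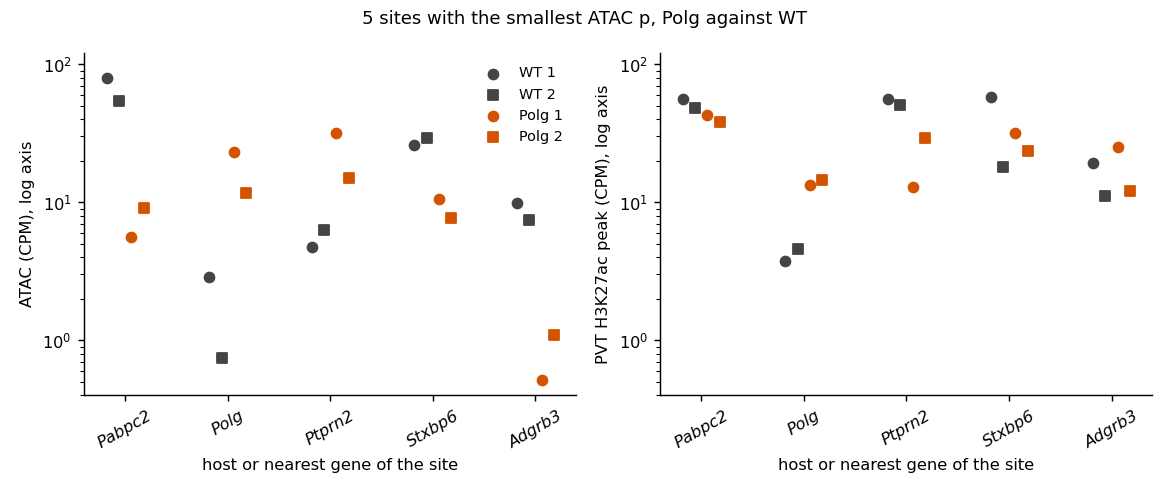
ATAC level (left) and PVT H3K27ac level of the overlapping peak (right) in CPM on log axes for the 5 sites with the smallest ATAC p, with 1 point per library, WT in grey and Polg in orange. Genotypes do not overlap by ATAC at these sites, which were chosen for that, and H3K27ac follows the same direction at the Pabpc2 and Polg sites and the opposite one at Ptprn2.

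No H3K27ac peak over a site was called by edgeR. The table's 121536 tested peaks gave 0 calls (0%), with 9835 (8.09%) at an unadjusted p under 0.05, and the 22942 tested peaks over sites gave 1183 (5.16%). The DESeq2 Wald test called 1453 peaks over sites, 714 higher and 739 lower in Polg, against 10.7% of all peaks tested, and limma voom called 252, against 6.45%. These were 6.32 and 1.10% of the peaks over sites, and the difference from all peaks was not tested. The common biological coefficient of variation was 1.06 for H3K27ac and 0.442 for ATAC. In simulated tables where every peak had that spread, the edgeR test recovered 0% and 1.08% of 4-fold changes. With a spread of 0.1 at every peak, it recovered 100% and 94.3%. Spreads that differ between peaks were not simulated, so these shares do not give the recovery at single sites.

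The 5 smallest p-values over H3K27ac peaks were at sites near Galnt18 and Ttc17 and inside Pms2, Gpc6 and Nell1, each with an adjusted p of 0.556 (edgeR). At the Galnt18 site the peak had 7.76 and 6.17 CPM in WT and was listed at 0 in both Polg libraries, while ATAC there was 3.98 and 4.81 CPM in WT and 6.68 and 1.54 CPM in Polg. At the Pms2 site, in a mismatch repair gene, H3K27ac was 5.89 and 5.92 CPM in WT and 0 in both Polg libraries. The reverse was seen near Ttc17, with 0 in both WT libraries and 5.14 and 6.41 CPM in Polg. Inside Gpc6, a glypican gene, H3K27ac was 2.24 and 1.89 CPM in WT and 15.1 and 12.4 CPM in Polg, and inside Nell1, which encodes a secreted growth factor-like protein, it was 54.9 and 58.1 CPM in WT and 25.1 and 25.5 CPM in Polg. ATAC overlapped between genotypes at 4 of these sites, and at the Gpc6 site both Polg libraries were higher (log2 0.87, adjusted p = 0.832, edgeR).

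Over all tested sites, the median ATAC change was −0.08 on the log2 scale, against -0.0024 over all peaks tested, and the median H3K27ac change of the peaks over sites was −0.05 against -0.0029. Over left-out libraries the ATAC median ran from -0.164 to -0.0126. The H3K27ac median turned to 0.0477 without the first WT library and to 0.00984 with total counts in place of TMM, so its direction is not settled. Sites higher in both Polg libraries than in both WT libraries numbered 4140 (15.5%), against 19.8% of all ATAC peaks, and those lower numbered 5779 (21.6%), against 21.0%. The mix of peak kinds, described below, differed between sites and other ATAC peaks. For H3K27ac, 4118 peaks over sites were higher (17.9%, against 22.6% of all) and 5171 lower (22.5%, against 24.1%). The ATAC and H3K27ac changes of a site were nearly unrelated across 26690 sites (Spearman 0.03). Sites held 27.5 and 21.9% of ATAC peak counts in WT and 20.4 and 26.5% in Polg, and the genotypes overlapped (exact permutation test, 2-sided, n = 2 per genotype, p = 0.667, where 0.333 is the smallest possible). Peaks over sites held 48.8 and 46.8% of PVT H3K27ac counts in WT and 47.0 and 46.7% in Polg (exact permutation p = 0.667).

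No list held a called site. The median ATAC change was −0.18 for thalamic transcription factors, −0.23 for PVT signalling genes, −0.20 for potassium channel genes, −0.31 for clock genes, 0.11 for pan-neuronal genes and 0.07 for immediate early genes. Over the 16 lists it ran from −0.35, for GABAergic identity with 10 sites, to the 0.11 of pan-neuronal genes, and no test was made.

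The direction of ATAC change went with the kind of peak, in these sites and in the other classes of ATAC peaks. Sites whose identifier ended in 1 had 1 of 2 lengths, 323 bp (7527 sites) or 329 bp (6196 sites), and the other 13182 had identifiers ending in 2 or 3. The meaning of this number is not given in the sources used here. The 323 bp sites had a median log2 change of 0.55, with 82.8% higher in Polg, and levels of 3.73 and 4.07 CPM in WT and 5.65 and 6.06 CPM in Polg. The 329 bp sites had a median of −0.76, with 7.19% higher in Polg, and levels of 7.09 and 6.29 CPM in WT and 3.85 and 3.97 CPM in Polg. The sites with other identifiers had a median of −0.10. Distal sites without acetylation had medians of 1.0 at 323 bp and −1.07 at 329 bp, and peaks at gene ends had 0.56 and −0.61, so the split was present in all 3 classes. Identifiers ending in 2 or 3 made up 49.0% of distal acetylated sites, 28.5% of distal sites without acetylation and 63.7% of peaks at gene ends. The Pabpc2 and Adgrb3 sites, lower in Polg, were 329 bp long, the Polg and Ptprn2 sites, higher in Polg, were 323 bp long, and the Stxbp6 site was of the remaining kind. The Lef1 site described above, lower in Polg, was also of the 329 bp kind, and the Gpc6 site, higher in Polg, of the 323 bp kind. The Prox1, Nr2f1 and Slc17a6 sites, lower in Polg, had identifiers ending in 2. The part of this split in the genotype results was not tested.

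**Figure D5:**
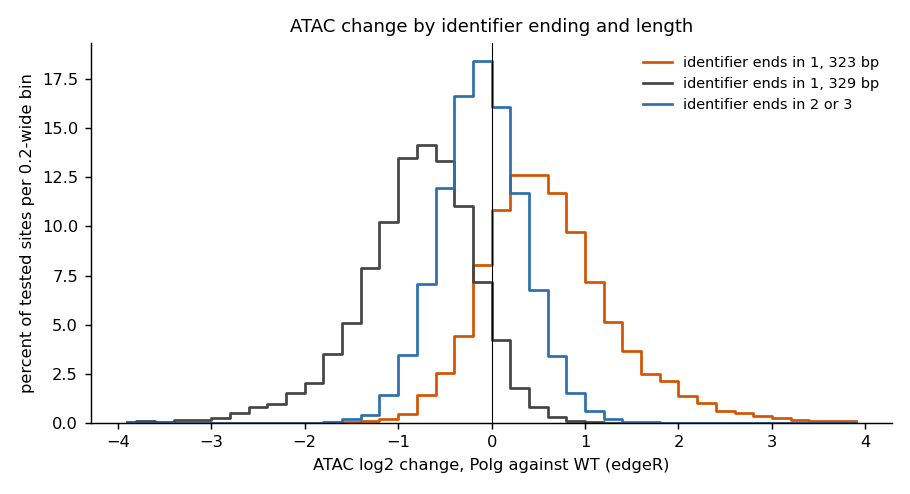
Distribution of the ATAC log2 change, Polg against WT (x axis), over tested distal acetylated sites by identifier ending and length, as percent of the sites of each kind per bin (y axis). Sites of 323 bp lie mostly above 0 (median 0.55), those of 329 bp mostly below (median −0.76), and the rest around −0.10.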

How the data were processed

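ATAC and H3K27ac were analysed from 5 tables of raw read counts per peak, deposited by the authors, 1 merged peak set per table with 4 libraries (WT and Polg, 2 each). Build mm10 and the tools DESeq2, featureCounts, HOMER, STAR and Subread come from the submitters' processing notes, which give no versions. How peaks were called and filtered is not given in the sources. Columns headed TG were taken as Polg, the only group other than WT. Gene spans came from a RefSeq table of GRCm38.p6, and sequences from RefSeq windows of that build. Overlap counted both end positions. CPM used TMM library sizes. The main test was edgeR 4.0.16 (R 4.3.3), quasi-likelihood, with its filter on low counts, over each whole table, checked on simulated data. DESeq2 1.42.0 and limma 3.58.1 voom were alternatives. Sites named were the highest by ATAC or H3K27ac (6 each), the 5 of smallest p per assay, the highest with none (6) or all 3 (4) other regions, the highest per gene of the thalamic and PVT lists, and those at Polg. Genes named were the 10 with most sites and, per other list, mainly those with most sites. Other genes of the lists and the miRNA and start-window sites were chosen after their values were seen. Members and lists were chosen with earlier results of these data known. Depth limits precision, most in the second WT ATAC library. Counts are not independent molecules.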

Additional observations from a re-analysis of the deposited data

How the results depend on the processing

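The Polg-minus-WT differences in the share of counts changed sign between alternatives, and the genotype counts and overlap shares moved. The DESeq2 Wald test called 2 sites by ATAC in place of 1 and 1453 H3K27ac peaks over sites in place of 0, and limma voom called 252 of the latter. Among sites with identifiers ending in 2 or 3, an alternative chosen after seeing the data, edgeR called 0 by ATAC (224 at an unadjusted p under 0.05), since the called site is of another kind. Leaving out 1 library at a time gave 0 to 1 sites by ATAC, with 0 without the first WT library, and 0 peaks by H3K27ac each time (edgeR, with 698 to 1716 at an unadjusted p under 0.05). The median ATAC change then ran from -0.164 to -0.0126 and the median H3K27ac change from -0.101 to 0.0477, and with total counts only the latter was 0.00984, so its direction is not settled. The cause was not tested. The Polg-minus-WT difference in the share of counts ran from -4.35 to 1.75 percentage points for ATAC and from -1.91 to 0.0824 for H3K27ac. Peaks covering 50% of the site gave shares of 30.9% for COR, 15.4% for CP, 28.7% for NAC, 6.59% for all 3 and 52.7% for none. Peaks in the upper 50% by mean CPM gave 31.5%, 18.4%, 29.8%, 8.39% and 52.2%. The level comparisons kept their direction in every alternative run, with ranges over left-out libraries of 0.757 to 0.863 against distal sites without acetylation, -0.890 to -0.841 against gene ends, 0.249 to 0.318 for H3K27ac and 0.886 to 0.930 for sites with 3 against 0 other regions. The number of sites stayed within 1.5 times under the alternatives run, from 22044 to 28423. The log2 change at the site 36.8 kb from Polg reversed by ATAC without the first Polg library, with a range of -0.958 to 0.0105 over left-out libraries, and by H3K27ac without the first WT library, with a range of -0.233 to 0.153, and with total counts (0.0141). Same-numbered libraries did not deviate together across peaks (correlation -0.048 for ATAC and -0.012 for H3K27ac). With 2 libraries per genotype this cannot settle whether the replicate numbers pair them. With the replicate number as a block, 1 site was called by ATAC and 0 peaks by H3K27ac, and the medians were -0.0896 and -0.0685.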
